A study of Rattus norvegicus with 6 samples.

Results

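The respiratory chain subunits of both genomes were followed in isolated rat glomeruli, the filtering units of the kidney. They were taken by symbol, as all rows whose symbol in the authors' tables starts with NDUFA, NDUFB, NDUFC, NDUFS, NDUFV, UQCR, COX4, COX5, COX6, COX7, COX8, ATP5 or MT-, together with SDHA, SDHB, SDHC, SDHD, CYCS and CYC1. This gave 112 gene IDs of the 26319 in the count table, or of the 12321 that had a symbol. Of these, 100 were nuclear-encoded and 12 were encoded in mitochondrial DNA. The nuclear-encoded IDs comprised 46 of complex I, 4 of complex II, 10 of complex III, 19 of complex IV, 17 of complex V, 2 of cytochrome c and 2 others named for ATP synthase. The mitochondrially encoded ones comprised 7 of complex I, 1 of complex III, 3 of complex IV and 1 of complex V (MT-ATP6). No ID with the symbol MT-ATP8 was among them. The rule also brought in 6 assembly factors of complex I (NDUFAF genes) and 6 IDs of tissue-restricted or related isoforms of complex IV. The 112 IDs carried 100 symbols, 12 symbols having 2 IDs each, and all 112 IDs passed the filter on low counts. Counts over 75 nuclear subunits below take the more abundant ID of each symbol and leave out assembly factors, isoforms and the 2 others.

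Each library came from a rat of the Sprague Dawley strain, and the 3 groups held 2 libraries each: wild-type rats given vehicle (WT, aged 20.4 and 21.9 weeks), rats with an AT1R transgene (AT1R Tg) given vehicle (20.4 and 17.4 weeks), and AT1R Tg rats given AC1903 (23.0 and 20.4 weeks). AT1R is the type 1 receptor for angiotensin II, and AC1903 blocks TRPC5, a cation channel. The AT1R Tg groups are called vehicle and AC1903 below, and all values in a series of pairs stand in the order replicate 1, replicate 2. The labels name neither the transgene's promoter nor the sex of the rats. Total expected counts were 25045081 and 36026772 in WT against 12325515 to 14230770 in the 4 AT1R Tg libraries, so depth differed with genotype. All 12 podocyte markers, from cells that define the glomerulus, were detected in every group, with summed levels of 7423 to 14149 CPM (normalised counts, as CPM units after TMM scaling between libraries). The 20 of 22 proximal tubule markers that had an ID were detected as well. The second vehicle library stood apart from the others in these values: it had the lowest podocyte sum, the highest proximal tubule sum (12988 CPM, against 2930 to 7066 in the other 5 libraries) and the largest mitochondrially encoded share of counts (40.5%, against 22.3 to 34.0%).

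The respiratory chain passes electrons from NADH (complex I) and succinate (complex II) through complex III and the soluble carrier cytochrome c to oxygen (complex IV), and complex V uses the resulting proton gradient to make ATP. Complexes I, III, IV and V are built from subunits of both genomes, whereas complex II and cytochrome c are encoded in the nucleus alone. Core subunits carry out the redox chemistry, proton pumping or rotation, and supernumerary subunits surround them. In the kidney the proximal tubule is known for its dense mitochondria, and podocytes, endothelial and mesangial cells hold fewer. Nuclear subunit genes are known targets of NRF1, of GABPA (an ETS factor), of YY1 and of the oestrogen-related receptors (ERR family), with the co-activator PPARGC1A acting through several of them, while TFAM and POLRMT serve transcription of mitochondrial DNA.

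Promoters were read because the nuclear members moved together in these data, and the sequences below show the words searched in their setting. RefSeq promoters (assembly GRCr8, 250 bases before to 50 after the start site) were found for 76 of the 88 nuclear symbols, 62 by symbol and 14 by a synonym. A palindromic NRF1 word, searched exactly on both strands and shown in capitals below, occurred in 6 member promoters (7.89%), against 0.932% of all 27457 promoters in the table and 1.14% of the 19005 of protein-coding genes. The 6 promoters are shown as 60 bases each, 5′ to 3′ along the gene's strand, with the word and any overlapping copy in capitals.
ATP5G2 (chr7:135678240-135678299, minus strand): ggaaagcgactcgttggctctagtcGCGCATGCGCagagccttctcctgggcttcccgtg
ATP5I (chr14:1464759-1464818, plus strand): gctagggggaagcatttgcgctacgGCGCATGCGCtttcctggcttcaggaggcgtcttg
ATP5O (chr11:44657508-44657567, minus strand): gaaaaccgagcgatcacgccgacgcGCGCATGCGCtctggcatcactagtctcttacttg
NDUFA11 (chr9:1637492-1637551, plus strand): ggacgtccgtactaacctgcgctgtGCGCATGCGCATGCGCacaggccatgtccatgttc
NDUFAF4 (chr5:43401612-43401671, plus strand): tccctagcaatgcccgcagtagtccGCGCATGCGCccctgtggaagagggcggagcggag
NDUFAF5 (chr3:147961552-147961611, plus strand): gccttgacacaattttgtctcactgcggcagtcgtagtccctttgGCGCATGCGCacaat
The first 3 belong to complex V subunits, NDUFA11 is a supernumerary subunit of complex I, and NDUFAF4 and NDUFAF5 are complex I assembly factors. Their NRF1 words began 15 to 158 bases before the start site. NDUFA11 holds overlapping copies of the word, so its capitals run on.

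The ERR word AAGGTCA was found in 10 member promoters (13.2%), against 4.37% of all promoters and 3.70% of protein-coding ones. Those of ATP5G3, the c subunit of the ATP synthase rotor, and NDUFB2, a supernumerary subunit of complex I, are shown, the genes with the word before the start site among those DESeq2 called in vehicle against WT. COX8A, also called by DESeq2, and NDUFB4 hold it after the start site and are not shown. For NDUFB4 DESeq2 called only the second, low ID and not the leading one, and the promoter was matched by symbol. The word reads TGACCTT where it lies on the opposite strand.
ATP5G3 (chr3:79220689-79220748, minus strand): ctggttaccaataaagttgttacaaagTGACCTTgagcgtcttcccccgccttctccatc
NDUFB2 (chr4:69334087-69334146, plus strand): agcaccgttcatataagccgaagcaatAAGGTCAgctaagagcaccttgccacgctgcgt
The shorter NRF1 core GCATGCGC, which the longer NRF1 word contains, was present in 11 (14.5%, against 2.66% of all promoters). CCGGAAG, the ETS word, was present in 20 (26.3%, against 9.22%). A long YY1 word and the shorter AAGATGG within it were present in 8 (10.5%, against 0.798%) and 19 (25%, against 7.30%). Both can overlap a start codon lying just after the start site. These matches describe letters only, and no binding was measured. In vehicle against WT the median log2 change was 0.33 for the 6 genes with the NRF1 word and 0.45 for the 70 without, and 0.48 for the 10 with the ERR word and 0.44 for the 66 without.

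Vehicle was compared with WT to ask what differs in glomeruli of the transgenic rats. The nuclear subunits stood higher in vehicle as a group, by 1.35 times at the median, but no member passed the test in edgeR. Summed over the 100 nuclear IDs, the level was 9273 and 8941 CPM in WT, 11438 and 14264 in vehicle libraries, and 10704 and 10002 CPM in AC1903. Both vehicle libraries lay above all others and both WT libraries below all others. The means were 9107 ± 235 in WT, 12851 ± 1999 in vehicle and 10353 ± 496 CPM in AC1903 (SD, n = 2 each). The median log2 change of the 100 IDs was 0.43, against -0.03 over all 13426 genes tested, and 92 were above 0 against 46.6% of all genes. In 78 of the 100, both vehicle libraries lay above both WT libraries, and in 2 both lay below, against 20.6% and 23.4% of all genes tested. An unadjusted p under 0.05 was reached by 53 higher and 1 lower nuclear ID, against 8.57% and 3.35% of all genes. After adjustment edgeR called none of the 112 members (smallest adjusted p 0.178), where 0.0745% of all genes were called, and limma-voom called none. DESeq2 called 15 members higher and 1 lower, against 3.73% and 0.395% of all genes. In bulk RNA of this kind, more cells of a mitochondria-rich type and more RNA per cell cannot be told apart.

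**Figure D1:**
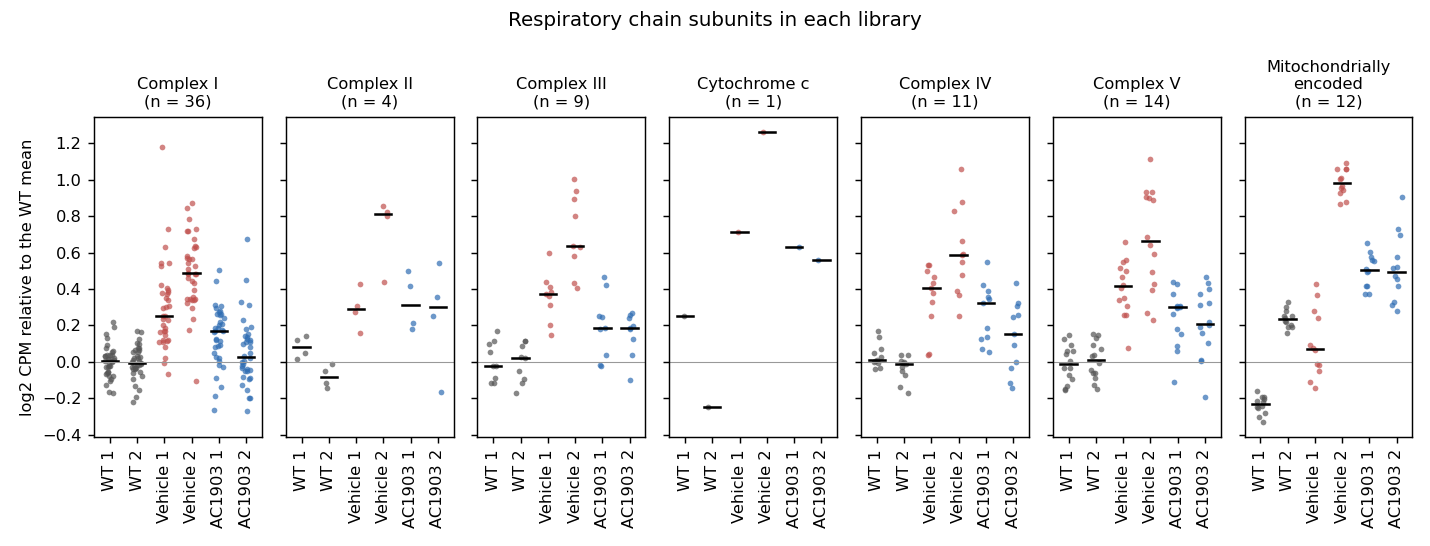
log2 CPM of each subunit relative to its mean in WT (vertical axis, log2 units) in each of the 6 libraries (horizontal axis), for the 75 nuclear subunits by complex and the 12 mitochondrially encoded genes. Points are genes and bars are medians. Nuclear medians are highest in the second vehicle library for each complex, and the median of the mitochondrially encoded genes in the first vehicle library lies between those of the 2 WT libraries.

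The spread within a group was not even. In the vehicle group replicate 2 lay above replicate 1 in 62 of the 75 nuclear subunits, with a median log2 difference of 0.27, and in all 12 mitochondrially encoded genes, with a median of 0.92. Against the WT mean, the median nuclear ID stood at 0.34 and 0.55 (log2) in the 2 vehicle libraries, so both were above WT, and at 0.18 and 0.11 in the AC1903 libraries. Leaving out the second vehicle library left the nuclear median at 0.33. Leaving out the first raised it to 0.54.

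Among the 7 nuclear core subunits of complex I, which hold its flavin and iron-sulphur clusters, all 7 log2 changes were above 0, with a median of 0.45. Of these, 3 were higher at an unadjusted p under 0.05, against 8.57% of all genes. NDUFS8, an iron-sulphur subunit, had 49.2 and 48.6 CPM in WT, 63.8 and 89.4 in vehicle, and 52.1 and 46.1 in AC1903. Both vehicle libraries were above the other 4, and AC1903 was at the WT level. Its log2 change in vehicle against WT was 0.65 (SE 0.19, adjusted p = 0.206 in edgeR). NDUFS1, the largest core subunit, had 134 and 102 CPM in WT, 139 and 209.9 in vehicle, and 166 and 159 in AC1903, with the first vehicle library close to the first WT library. NDUFS8 and NDUFS1 fall outside the naming rule and were chosen after their values were seen.

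The 33 supernumerary IDs of complex I had a median log2 change of 0.37, and 32 were above 0. NDUFC1, a small membrane-arm subunit, had the smallest p of the complex, with 30.7 and 30.8 CPM in WT, 69.7 and 51.0 in vehicle, and 35.4 and 49.1 in AC1903. The vehicle libraries were both above the other 4. Its log2 change in vehicle against WT was 0.97 (SE 0.22, adjusted p = 0.178 in edgeR), and DESeq2 gave an adjusted p of 0.00664. NDUFA1, a membrane-arm subunit needed for assembly, had 82.1 and 91.6 CPM in WT, 125 and 111 in vehicle, and 72.3 and 77.9 in AC1903, so that both AC1903 libraries lay below both WT libraries. NDUFA7, of the matrix arm, was the one supernumerary leading ID below 0, at a log2 change of -0.01, with 58.5 and 67.7 CPM in WT, 66.6 and 58.5 in vehicle, and 59.1 and 54.8 in AC1903 (chosen after its values were seen). The 6 assembly factors, which help build complex I without staying in it, had a median of 0.31, with 4 above 0, 2 below and none at an unadjusted p under 0.05.

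Complex II, succinate dehydrogenase, also works in the tricarboxylic acid cycle. Each of its 4 subunits was higher in both vehicle libraries than in both WT libraries, against 20.6% of all genes. SDHA, the flavoprotein, had 263 and 224 CPM in WT, 294 and 423 in vehicle, and 282 and 288 in AC1903. SDHB, the iron-sulphur subunit, had 88.3 and 72.4 CPM in WT, 107 and 141 in vehicle, and 113 and 116 in AC1903, so that the AC1903 libraries stood above WT too. SDHB had a log2 change of 0.63 (SE 0.19, adjusted p = 0.209) in vehicle against WT, the smallest p of the complex. The membrane anchor SDHC had 187 and 175 CPM in WT, 223 and 327 in vehicle, and 241 and 231 in AC1903, and the second anchor SDHD had 147 and 144 CPM in WT, 162 and 197 in vehicle, and 165 and 129.7 in AC1903. The log2 changes of SDHA, SDHC and SDHD were 0.56, 0.60 and 0.31 (adjusted p = 0.328, 0.262 and 0.575). SDHD was the lowest of the 4, and its AC1903 libraries lay on either side of WT.

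In complex III all 10 nuclear IDs were higher in both vehicle libraries than in both WT libraries, against 20.6% of all genes. Their median log2 change was 0.54, and 8 were higher at an unadjusted p under 0.05, against 8.57% of all genes. CYC1, the haem-bearing cytochrome c1, had 62.2 and 73.0 CPM in WT, 91.3 and 117 in vehicle, and 80.1 and 77.2 in AC1903. In vehicle against WT it had a log2 change of 0.62 (SE 0.18, adjusted p = 0.201), and DESeq2 gave an adjusted p of 0.0441. UQCRFS1, the Rieske iron-sulphur protein, had 106 and 92.7 CPM in WT, 129 and 198 in vehicle, and 137 and 119 in AC1903, with a log2 change of 0.72 (adjusted p = 0.216). UQCRB, which supports cytochrome b, had 2 IDs. The leading one had 59.0 and 54.9 CPM in WT, 63.1 and 85.2 in vehicle, and 64.8 and 53.2 in AC1903, and the second had 29.2 and 32.2 CPM in WT, 42.7 and 48.9 in vehicle, and 34.5 and 31.8 in AC1903. UQCR10 was listed at 0.62 to 1.302 CPM, far below the rest of its complex, and its values say little at this depth.

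Cytochrome c (CYCS), which carries electrons to complex IV and is also known for its release in apoptosis, had the largest log2 change of any nuclear subunit at its leading ID. Its levels were 235 and 166 CPM in WT, 325 and 474 in vehicle, and 307 and 292 in AC1903. All 4 AT1R Tg libraries lay above both WT libraries, and the 2 WT libraries differed by more than the 2 AC1903 libraries. Its log2 change in vehicle against WT was 0.99 (SE 0.24, adjusted p = 0.180 in edgeR), and DESeq2 gave an adjusted p of 0.0054. A second CYCS ID held 0.64 to 5.37 CPM, and RSEM may divide reads between such near-identical copies.

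In complex IV the 11 subunits found in most tissues were all above 0, from COX4I1 at 0.22 to COX5A at 0.81. COX4I1, the largest nuclear subunit, had 339.9 and 357 CPM in WT, 359 and 449.5 in vehicle, and 365 and 315 in AC1903, with its first vehicle library close to the second WT library. COX5A had 74.2 and 71.3 CPM in WT, 103 and 152 in vehicle, and 106 and 98.0 in AC1903 (chosen after its values were seen), and DESeq2 gave an adjusted p of 0.0147. COX8A, the smallest subunit, had 176 and 175 CPM in WT, 241 and 321 in vehicle, and 235 and 209.6 in AC1903. COX6A1 had 223 and 225 CPM in WT, 297 and 293 in vehicle, and 255 and 223 in AC1903, and COX6B1, at the outer face of the membrane, had 49.1 and 49.1 CPM in WT, 50.5 and 77.7 in vehicle, and 62.3 and 61.4 in AC1903 at its leading ID and 30.5 and 20.9 CPM in WT, 29.3 and 39.3 in vehicle, and 27.9 and 30.9 in AC1903 at the second. COX7A2 had 179.6 and 189 CPM in WT, 232 and 219.5 in vehicle, and 192 and 169.9 in AC1903 at its leading ID and a second ID at 6.32 and 8.59 CPM in WT, 7.01 and 4.56 in vehicle, and 8.73 and 5.995 in AC1903, whose groups overlapped. NDUFA4, first assigned to complex I and now placed in complex IV, had 219.6 and 199 CPM in WT, 302 and 306 in vehicle, and 230.3 and 233 in AC1903, with replicates close together. In vehicle against WT NDUFA4 had a log2 change of 0.54 (SE 0.16, adjusted p = 0.204), and DESeq2 gave an adjusted p of 0.014.

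Complexes II and V had the highest nuclear medians of the 5 complexes, both 0.58. For complex V all 17 IDs were above 0. ATP5F1, a stator subunit, had 102 and 94.3 CPM in WT, 144 and 182 in vehicle, and 118 and 136 in AC1903. All AT1R Tg libraries lay above WT and vehicle lay highest. Its log2 change in vehicle against WT was 0.73 (SE 0.17, adjusted p = 0.180 in edgeR), and DESeq2 gave an adjusted p of 0.0105. The c subunit of the rotor is encoded by 3 genes whose mature proteins are known to be identical, and their fitted log2 changes differed in size. ATP5G1 had 88.0 and 74.0 CPM in WT, 103 and 154 in vehicle, and 99.3 and 92.2 in AC1903. ATP5G3 had 181 and 159.7 CPM in WT, 240.5 and 317 in vehicle, and 210.5 and 219.8 in AC1903. ATP5G2 had 153 and 188 CPM in WT, 179 and 199 in vehicle, and 176 and 148 in AC1903. The log2 changes of ATP5G1 and ATP5G3 were 0.67 and 0.71 (SE 0.21 and 0.18), whereas that of ATP5G2 was 0.15 (SE 0.18), with overlapping groups. Per 100 counts of ATP5G3, ATP5G2 had 84.4 and 117 in WT, 74.3 and 62.8 in vehicle and 83.8 and 67.5 in AC1903, so the ratio was lower in both vehicle libraries than in both WT libraries. Per 100 counts of ATP5G1, ATP5G2 had 173.8 and 254 in WT, 173.7 and 129 in vehicle and 178 and 161 in AC1903. By that ratio the first vehicle library was level with the first WT library. The difference between these genes was not tested. ATP5E, the rotor's epsilon subunit, had 179 and 221 CPM in WT, 293 and 261 in vehicle, and 184 and 200.1 in AC1903, and ATP5J, a stator subunit, had 54.2 and 61.8 CPM in WT, 77.6 and 77.8 in vehicle, and 71.3 and 78.2 in AC1903.

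**Figure D2:**
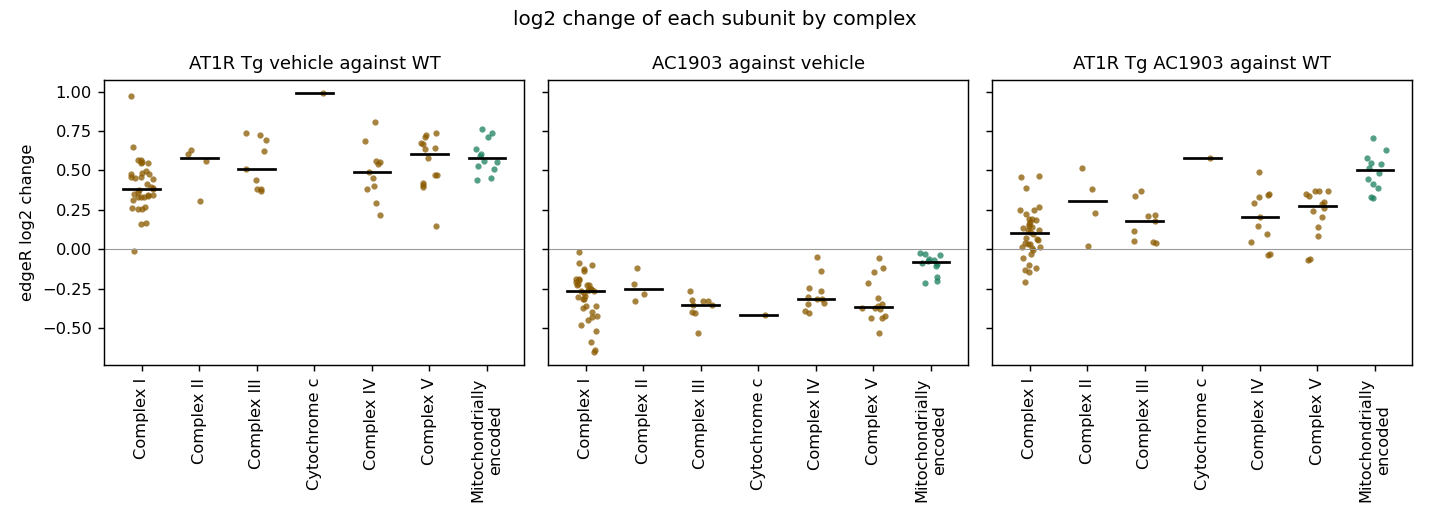
edgeR log2 change (vertical axis) of each of the 75 nuclear subunits by complex and of the 12 mitochondrially encoded genes in the 3 comparisons, which share groups. Points are genes and bars are medians. In vehicle against WT 74 of 75 nuclear subunits lie above 0, in AC1903 against vehicle all 75 lie below 0, and the mitochondrially encoded genes lie near 0 in the latter.

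All 12 mitochondrially encoded genes also had a log2 change above 0 in vehicle against WT, from 0.44 to 0.76 with a median of 0.58, but the second vehicle library carried it. For the catalytic subunits of complex IV, MT-CO1 had 72402 and 101429 CPM in WT, 91211 and 178719 in vehicle, and 134463 and 118762 in AC1903, MT-CO2 had 12747 and 16927 CPM in WT, 14561 and 28261 in vehicle, and 19004 and 18225 in AC1903, and MT-CO3 had 18424 and 27153 CPM in WT, 21595 and 40819 in vehicle, and 31508 and 28049 in AC1903. In each the first vehicle library lay between the 2 WT libraries. MT-CYB, the cytochrome b of complex III, had 15721 and 20515 CPM in WT, 16619.9 and 35023 in vehicle, and 25398 and 24012 in AC1903, and MT-ATP6, the proton channel subunit of complex V, had 13559 and 19159.8 CPM in WT, 15915 and 32352 in vehicle, and 23693 and 22086 in AC1903, with the same order. Of the proton-pumping subunits of complex I, MT-ND1 had 16645 and 22663 CPM in WT, 17556 and 35737 in vehicle, and 25889 and 23566 in AC1903, MT-ND2 had 30774 and 40224 CPM in WT, 37099.7 and 70697 in vehicle, and 53440.0 and 52377 in AC1903, and MT-ND4 had 11711 and 16658 CPM in WT, 14589.7 and 27048 in vehicle, and 20549 and 20004 in AC1903. MT-ND3 had 1477 and 2244 CPM in WT, 2153 and 3459.5 in vehicle, and 2355 and 2602 in AC1903. These 4 also overlapped between vehicle and WT.

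The other 3 complex I genes had both vehicle libraries above both WT libraries. That is 25% of the 12 mitochondrially encoded genes, near the 20.6% of all genes tested. MT-ND4L had 1129 and 1524 CPM in WT, 1692 and 2729 in vehicle, and 1870.0 and 2457 in AC1903. MT-ND5 had 5296 and 6585 CPM in WT, 7165 and 12289.6 in vehicle, and 8789 and 9551 in AC1903. MT-ND6 had 675 and 1067 CPM in WT, 1142 and 1812 in vehicle, and 1133 and 1408 in AC1903. Their log2 changes were 0.74, 0.71 and 0.76 (SE 0.30, 0.35 and 0.31; adjusted p = 0.382, 0.488 and 0.369). MT-ND6 lies on the opposite strand to the other genes, MT-ND4L overlaps MT-ND4, and no source used here says whether the counting used strand, so reads of neighbouring or opposite transcripts may be shared. Without the second vehicle library the median of the 12 was 0.054, and without the first it was 0.97. Without the first WT library it was 0.33, and with age as a covariate 0.28. MT-ND4L and MT-ND6, 2 of the 12, were higher at an unadjusted p under 0.05 in edgeR, against 8.57% of all genes. None of the 12 was called by edgeR, limma-voom or DESeq2.

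Within the mitochondrially encoded counts each gene's share varied by 1.05 to 1.45 times over the 6 libraries. The least variable was MT-ATP6 at 6.60 to 6.94%, and the most variable were the least abundant genes, MT-ND6 at 0.326 to 0.473%, MT-ND4L at 0.537 to 0.760% and MT-ND3 at 0.677 to 0.892%. In 4 of the 12 genes both WT libraries lay apart from all 4 AT1R Tg libraries, 3 with WT higher and 1 with WT lower. The other 8 overlapped. Each share is taken within the 12 genes, so no share over all genes can stand beside this count. Since the shares of a library add up to its whole, the 4 are not independent of each other. MT-ND1 took 8.30 and 8.21% in WT against 7.28 to 7.62% in AT1R Tg. MT-CO3 took 9.19 and 9.83% in WT against 8.68 to 9.05% there, and MT-CO1, the one with WT lower, took 36.10 and 36.73% against 36.76 to 38.63%. MT-CO2 took 6.36 and 6.13% in WT, 6.03 and 6.03% in vehicle and 5.46 and 5.64% in AC1903, 3 groups without overlap. Between any 2 of the groups, with 2 libraries against 2, an exact permutation test cannot give a p under 0.3333. That bound does not apply to WT against all 4 AT1R Tg libraries, and neither split was tested for these shares.

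The balance of the genomes was read as mitochondrially encoded counts per nuclear-encoded count within a library, which needs no scaling between libraries. Gene lengths were not divided out, so the ratio compares libraries and not numbers of transcripts. It was 21.6 and 30.9 in WT, 21.1 and 32.9 in vehicle, and 32.5 and 32.3 in AC1903. The range in vehicle thus spanned the range in WT. The group means were 26.3 ± 6.55, 27.0 ± 8.33 and 32.4 ± 0.154 (SD, n = 2). On the log2 scale vehicle differed from WT by 0.03, AC1903 from vehicle by 0.30 and AC1903 from WT by 0.33, each within 1 pooled SD (0.34). By complex the mean ratios in WT, vehicle and AC1903 were 31.8, 35.5 and 42.1 for complex I, 22.8, 21.7 and 27.4 for complex III, 63.2, 68.9 and 80.4 for complex IV, and 5.56, 5.33 and 6.59 for complex V. AC1903 had the highest mean in each of the 4 complexes, but leaving out the first vehicle library turned the overall AC1903 difference from vehicle to -0.021.

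**Figure D3:**
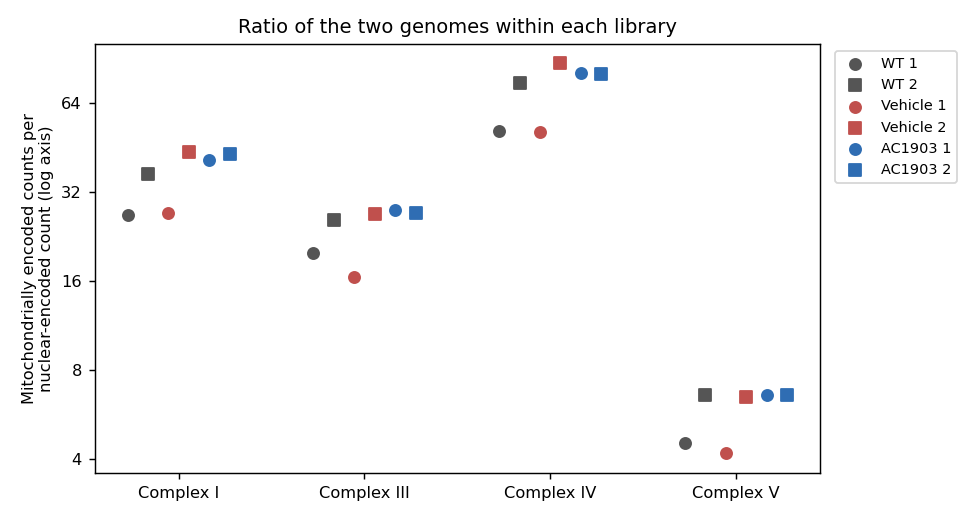
Mitochondrially encoded counts per nuclear-encoded count (vertical axis, log scale) for complexes I, III, IV and V in each of the 6 libraries, with circles for replicate 1 and squares for replicate 2. The first WT and first vehicle libraries are the lowest for each complex, and the other 4 libraries lie close together.

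AC1903 was compared with vehicle to ask what the TRPC5 inhibitor changed in transgenic glomeruli. The summed nuclear level of AC1903 lay between those of vehicle and WT, and no member was called by edgeR (0% of all genes) or limma-voom. The median log2 change of the 100 nuclear IDs was -0.32, against -0.02 over all genes, and 93 were below 0 where 52.1% of all genes were. Without the second vehicle library this median was -0.16, and with age as a covariate it was -0.20. Both AC1903 libraries lay below both vehicle libraries in 59 IDs and above them in 3, against 18.4% and 19.9% of all genes. An unadjusted p under 0.05 was reached by 17 lower and 1 higher nuclear ID, against 2.77% and 5.35% of all genes. DESeq2 called 1 member higher and 1 lower, against 0.439% and 0.0596%. This comparison shares the vehicle libraries with the one above, so the values of both are only given side by side.

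NDUFA1, the gene DESeq2 called lower, had the smallest p of the subunits apart from COX7A1. Its log2 change in AC1903 against vehicle was -0.65 (SE 0.16, adjusted p = 0.538 in edgeR), and DESeq2 gave an adjusted p of 0.041. The next were NDUFA12, a supernumerary subunit of complex I with 42.3 and 41.4 CPM in WT, 56.1 and 58.7 in vehicle, and 38.02 and 38.4 in AC1903 (chosen after its values were seen), and NDUFS8, given above, at -0.59 and -0.64 (SE 0.15 and 0.19; adjusted p = 0.538 and 0.549). In both genes the AC1903 libraries were at or near the WT level. By complex the nuclear medians were -0.27 for I, -0.25 for II, -0.36 for III, -0.32 for IV and -0.37 for V. The smallest p of complex V was that of ATP5E, whose log2 change in AC1903 against vehicle was -0.53 (SE 0.17, adjusted p = 0.568 in edgeR). For complex II it was SDHA, whose log2 change in AC1903 against vehicle was -0.33 (SE 0.21, adjusted p = 0.671 in edgeR). For complex III it was the second UQCRB ID, whose log2 change in AC1903 against vehicle was -0.47 (SE 0.17, adjusted p = 0.588 in edgeR). The 12 mitochondrially encoded genes had a median of -0.08, all 12 below 0, none with groups apart. Without the second vehicle library their median was 0.46, and with age as a covariate it was 0.28, opposite in direction.

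AC1903 was compared with WT in the same fit of all 6 libraries, so the vehicle libraries share in its scaling and estimate of spread. The nuclear median was 0.14, with 74 of 100 above 0 (50.2% of all genes). Both AC1903 libraries lay above both WT libraries in 45 IDs and below in 5, against 24.2% and 23.5% of all genes, and 6 higher and 1 lower had an unadjusted p under 0.05 (6.92% and 4.2% of all genes). Neither edgeR (0.0372% of all genes called), limma-voom nor DESeq2 (1.35% of all genes called) called a member. Complexes II and V had the higher nuclear medians, 0.31 and 0.29, and complexes I and IV the lower, 0.08 and 0.10. In all 12 mitochondrially encoded genes, both AC1903 libraries were above both WT libraries, with a median of 0.50 and 1 of 12 at an unadjusted p under 0.05. Without the first WT library this median was 0.26, without the second 0.77, and with the tubule markers as a covariate 0.18. Each of the 12 kept a similar share of their summed counts, varying 1.05 to 1.45 times over the 6 libraries. They are thus not 12 independent results. SDHB had a log2 change of 0.51 (SE 0.19, adjusted p = 0.400), the smallest p of complex II, and ATP5J had a log2 change of 0.37 (SE 0.15, adjusted p = 0.438), the smallest of complex V. UQCRFS1 had a log2 change of 0.37 (SE 0.22, adjusted p = 0.557), the smallest of complex III.

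Apart from COX7A2L, the isoforms of complex IV stood at a few CPM or less. COX4I2, the oxygen-responsive isoform of COX4 known from lung and vascular smooth muscle, was the one isoform with all 4 AT1R Tg libraries below both WT libraries. It had 2.05 and 2.93 CPM in WT, 1.34 and 0.895 in vehicle, and 0.499 and 1.04 in AC1903, from 57, 108, 19, 11, 6 and 13 counts. Per 100 counts of COX4I1 this was 0.602 and 0.820 in WT, 0.374 and 0.199 in vehicle, and 0.137 and 0.330 in AC1903. Its log2 change was -1.14 (SE 0.65, adjusted p = 0.555) in vehicle against WT and -1.68 (SE 0.67, adjusted p = 0.424) in AC1903 against WT. The summed level of 8 mesangial and smooth muscle markers was 842 and 921 CPM in WT, 813 and 651 in vehicle and 590 and 666 in AC1903, and the part of these cells in the COX4I2 levels was not tested. NDUFA4L2, a hypoxia-responsive relative of NDUFA4, had 2.51 and 2.68 CPM in WT, 3.61 and 1.06 in vehicle, and 1.16 and 2.56 in AC1903, with overlapping groups. COX6B2, a testis isoform, had 0.538 and 1.57 CPM in WT, 1.42 and 1.55 in vehicle, and 0.166 and 0.719 in AC1903, and COX7A2L, known for its part in joining complexes III and IV, had 75.6 and 80.9 CPM in WT, 76.8 and 85.1 in vehicle, and 80.2 and 68.0 in AC1903.

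COX7A1, the heart and muscle isoform, was listed under 2 IDs whose counts alternated. The first (ENSRNOG00000050015) had 0.897 and 1.27 CPM in WT, 0 and 0 in vehicle, and 0.832 and 1.60 in AC1903, and the second (ENSRNOG00000047364) had 0 and 0.407 CPM in WT, 1.70 and 2.12 in vehicle, and 0 and 0 in AC1903. The first was at 0 exactly where the second was highest. Summed over both IDs the level was 0.897 and 1.68 CPM in WT, 1.70 and 2.12 in vehicle, and 0.832 and 1.60 in AC1903. The fitted changes of the single IDs, the largest among all members, are not given as folds, since a group is at 0 and a count of 0 allows up to 3 counts. NDUFB4 likewise had a second, low ID with 0.789 and 0.298 CPM in WT, 4.39 and 1.79 in vehicle, and 1.41 and 2.48 in AC1903, which DESeq2 called higher in vehicle than in WT (adjusted p = 0.0342) and which had the smallest p of complex I in AC1903 against WT (a log2 change of 1.85 (SE 0.77, adjusted p = 0.438)). Its leading ID had 79.1 and 75.1 CPM in WT, 86.8 and 97.6 in vehicle, and 77.4 and 76.4 in AC1903. Such IDs may share reads with near-identical copies, and their values are uncertain.

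**Figure D4:**
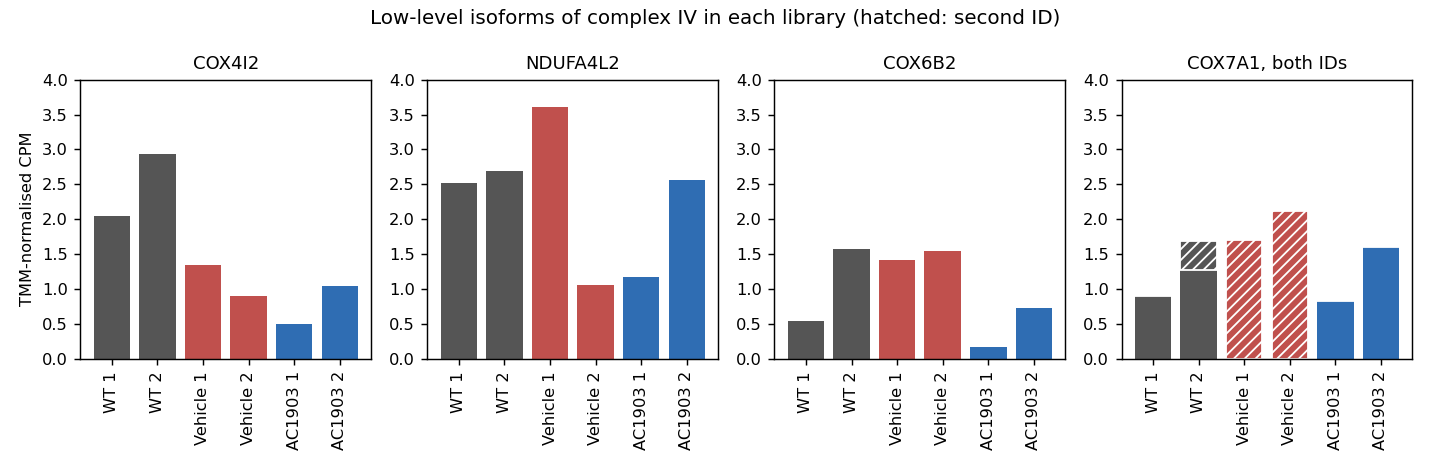
TMM-normalised CPM (vertical axis, from 0) of 4 low-level isoforms of complex IV in each of the 6 libraries. For COX7A1 the solid part is the first ID and the hatched part the second. The 2 WT bars of COX4I2 are the tallest of that gene, and in COX7A1 the vehicle bars are hatched only.

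Proximal tubule markers were also higher in vehicle than in WT, but they did not rank the 6 libraries as the subunits did. The summed level of the 20 markers was 4753 and 2930 CPM in WT, 6741 and 12988 in vehicle, and 7066 and 6965 in AC1903. In vehicle against WT all 20 had a log2 change above 0, with a median of 1.31, and both vehicle libraries above both WT libraries. Of all genes tested, 46.6% and 20.6% did so. The list's defining genes were well above 0: HNF4A, its transcription factor, had 23.1 and 9.33 CPM in WT, 34.9 and 69.9 in vehicle, and 32.7 and 32.8 in AC1903, and SLC34A1, its phosphate transporter, had 678 and 518 CPM in WT, 934 and 1902 in vehicle, and 984 and 1022 in AC1903. None of the 20 was called by edgeR. At an unadjusted p under 0.05 in edgeR 18 were higher, and DESeq2 called 17 higher, against 8.57% and 3.73% of all genes. In AC1903 against vehicle all 20 were below 0, with a median of -0.40. However, 0 had an unadjusted p under 0.05 and 6 had groups apart, against 2.77% and 18.4% of all genes on the lower side. The sum in the first vehicle library was below both AC1903 sums. In AC1903 against WT 18 of 20 were above 0, with a median of 0.93. With the mean log2 level of these markers as a covariate in the fit, the median of the nuclear members in vehicle against WT went from 0.43 to 0.16 and that of the mitochondrially encoded members from 0.58 to 0.025. In AC1903 against vehicle the nuclear median went from -0.32 to -0.21 and in AC1903 against WT from 0.14 to -0.0093. Because the marker level itself differed between the groups, this fit cannot separate it from genotype or treatment. The other marker lists did not follow this order: summed over their genes, 10 endothelial markers had 4916 to 5707 CPM in vehicle and 6928 to 6990 in WT, 12 macrophage markers 237 to 306 in vehicle and 257 to 433 in WT, 15 loop, distal tubule and collecting duct markers 536 to 561 in vehicle and 474 to 545 in WT, and 8 erythroid markers 40.1 to 75.9 in vehicle and 132 to 235 in WT. In AC1903 these sums were 5557 to 7725, 377 to 930, 722 to 767 and 41.6 to 301 CPM.

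**Figure D5:**
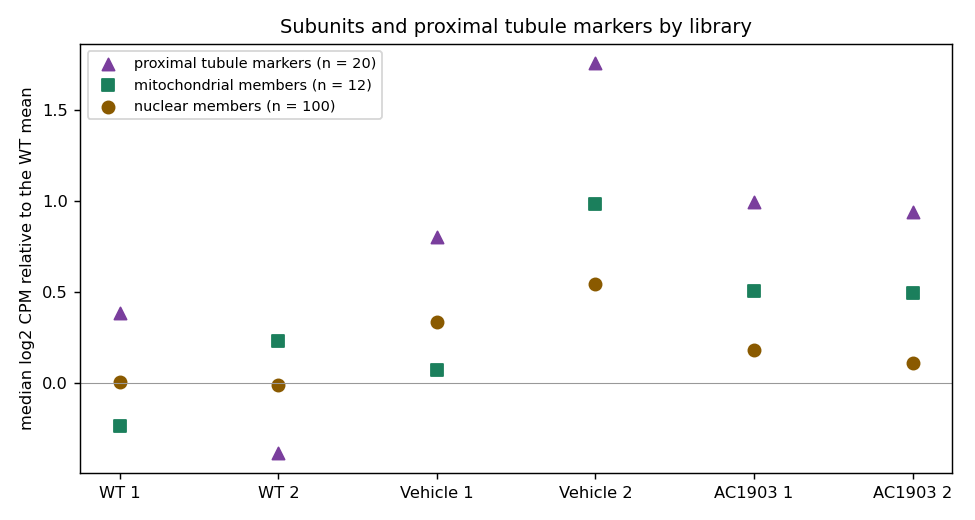
Median log2 CPM relative to the WT mean (vertical axis) of 20 proximal tubule markers, the 12 mitochondrially encoded members and the 100 nuclear members in each of the 6 libraries. All 3 sets are highest in the second vehicle library, and between the 2 WT libraries the tubule markers and the mitochondrially encoded members go in opposite directions.

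Genes that build or regulate the chain were read from fixed lists. For reference, 46.6% of all genes tested were above 0 in vehicle against WT. At an unadjusted p under 0.05 in edgeR, 8.57% of all genes were higher and 3.35% lower. DESeq2 called 3.73% of all genes higher and 0.395% lower. The 18 tricarboxylic acid cycle genes, whose enzymes supply NADH and succinate, had a median log2 change of 0.45 in vehicle against WT, with 16 above 0 and 10 at an unadjusted p under 0.05. SUCLG1, of succinyl-CoA ligase, had 110.5 and 92.8 CPM in WT, 143 and 217 in vehicle, and 152 and 129 in AC1903, and IDH3B, of NAD-dependent isocitrate dehydrogenase, had 69.5 and 64.4 CPM in WT, 82.4 and 103 in vehicle, and 69.5 and 72.0 in AC1903. Both were higher in both vehicle libraries than in WT. The 28 genes of mitochondrial import, channels and inner membrane structure had a median of 0.26 with 25 above 0 and 7 at an unadjusted p under 0.05. IMMT, which shapes the cristae that hold the chain, had 63.9 and 59.7 CPM in WT, 87.5 and 112 in vehicle, and 75.3 and 78.2 in AC1903, and HSPD1, the matrix chaperonin, had 246 and 219.8 CPM in WT, 309.6 and 454 in vehicle, and 277 and 316 in AC1903. For the 42 assembly factors outside the rule the median was 0.16, with 34 above 0 and 3 at an unadjusted p under 0.05. TMEM126B and ECSIT, which serve complex I assembly, had 14.6 and 12.5 CPM in WT, 19.1 and 20.8 in vehicle, and 14.6 and 15.3 in AC1903, and 26.1 and 20.7 CPM in WT, 29.6 and 36.5 in vehicle, and 27.0 and 29.5 in AC1903, respectively. None of these 88 genes was called by edgeR, and DESeq2 called 1 of the first list, 2 of the second and 0 of the third. In AC1903 against vehicle the 3 medians were -0.29, -0.21 and -0.23.

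The 33 genes of mitochondrial DNA replication, transcription and RNA processing had a median log2 change of 0.09 in vehicle against WT, with 20 above 0, 2 at an unadjusted p under 0.05 on the higher side and 1 on the lower. Over all genes tested these shares were 46.6%, 8.57% and 3.35%. TFAM, which packages mitochondrial DNA and starts its transcription, had 34.0 and 36.1 CPM in WT, 28.0 and 29.9 in vehicle, and 30.9 and 33.3 in AC1903, so that both vehicle libraries lay below both WT libraries (log2 change -0.28, adjusted p = 0.555). POLRMT, the RNA polymerase of mitochondria, had 15.5 and 20.1 CPM in WT, 14.9 and 23.8 in vehicle, and 19.5 and 16.6 in AC1903, with overlapping groups. PTCD3, of mitochondrial translation, had 58.3 and 52.8 CPM in WT, 63.0 and 118 in vehicle, and 91.7 and 101 in AC1903, and of the 3 IDs of MTERF1, a transcription termination factor, the one with the smallest p had 1.79 and 2.52 CPM in WT, 0.425 and 0 in vehicle and 0 in both AC1903 libraries.

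The 17 regulators of mitochondrial biogenesis had a median of 0.30 with 12 above 0 and 3 higher at an unadjusted p under 0.05 (46.6% and 8.57% of all genes). PPARGC1A had 6.82 and 2.66 CPM in WT, 7.86 and 16.3 in vehicle, and 8.07 and 5.20 in AC1903, with a log2 change of 1.35 (adjusted p = 0.335). The second WT library was the lowest of all 6, and the first vehicle library was close to the first WT library. PRKAA2, a catalytic subunit of the energy sensor AMPK, had 11.5 and 4.58 CPM in WT, 12.8 and 25.1 in vehicle, and 14.1 and 16.7 in AC1903. YY1 had 16.7 and 12.4 CPM in WT, 25.3 and 22.1 in vehicle, and 23.4 and 19.0 in AC1903. ESRRA, of the ERR family, had 37.97 and 39.5 CPM in WT, 42.3 and 61.9 in vehicle, and 32.6 and 42.0 in AC1903. NRF1 and GABPA had 10.1 and 9.89 CPM in WT, 10.8 and 6.59 in vehicle, and 10.1 and 10.6 in AC1903, and 50.3 and 45.7 CPM in WT, 45.7 and 40.6 in vehicle, and 48.6 and 40.1 in AC1903, respectively, with log2 changes of -0.20 and -0.15. None of the genes in these 2 lists was called by edgeR or DESeq2 in vehicle against WT, and their medians in AC1903 against vehicle were -0.05 and -0.00.

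The authors' deposited table of vehicle against WT listed all 112 members and called 15 higher and 1 lower at an adjusted p under 0.05, among 494 higher of 545 called in the 12321 listed. These were the 16 that DESeq2 called here: ATP5D, both ATP5F1 IDs, ATP5G3, ATP5I, ATP5O, COX5A, COX8A, CYC1, CYCS, NDUFA4, NDUFB2, the second NDUFB4 ID, NDUFC1 and UQCRC2 higher, and the first COX7A1 ID lower. Of the 16, all nuclear-encoded, 6 belong to complex V, which holds 17 of the 100 nuclear IDs. Both ATP5F1 IDs are counted among the 6. The authors' deposited table of AC1903 against vehicle called 1 member, the second COX7A1 ID, as lower, and DESeq2 here called the first COX7A1 ID and NDUFA1, so no call was shared.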

How the data were processed

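Polyadenylated RNA was sequenced with a stranded mRNA kit, per the labels' protocols. The authors deposited RSEM expected counts per gene, made with STAR 2.5.2b, RSEM 1.3.0 and the build Rnor_5.0 per the submitters' processing notes, and tables of log2 fold changes and adjusted p-values for 2 comparisons, per the file headers. No source used here gives the annotation or strand setting. Of all expected counts 5.53% were not whole, and they were rounded. Of 26319 rows, 8915 had no counts. Symbols came only from the authors' deposited tables.

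filterByExpr (minimum count 10) kept 13426 genes, and libraries were scaled by TMM. All 6 libraries entered 1 fit (3 residual degrees of freedom) with edgeR 4.0.16 in R 4.3.3, whose quasi-likelihood test was used two-sided, with Benjamini-Hochberg adjustment over all genes and a threshold of 0.05. The script was tested on simulated data. The common biological coefficient of variation was 23.0%. DESeq2 1.42.0, limma-voom (limma 3.58.1), other scalings and filters, a replicate block, age and the proximal tubule marker level as covariates and leaving out each library were alternatives. Levels are CPM after TMM, and a count of 0 allows up to 3 counts, or 0.0833 to 0.243 CPM of the library total, for counting error only. The 2 libraries of a group differed by more than sampling noise (chi-square per degree of freedom 19.0 to 92.8) and by age, so they came from different rats. Promoter words were searched by exact match in a RefSeq table of another assembly than the counts, used for sequence only.

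Genes named were all mitochondrially encoded members, CYCS, CYC1 and SDH genes, the nuclear member of smallest p in each complex and comparison, the extreme changes, isoform pairs, the 2 genes of smallest p in each pathway list and 6 regulators. Others were chosen after their values were seen. The members and lists were chosen with earlier results of these data known.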

Additional observations from a re-analysis of the deposited data

How the results depend on the processing

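In vehicle against WT, genes called numbered 10. They numbered 554 with DESeq2, 774 without a filter, 4 with only the 2 groups, 4 with age, 4 with a covariate for the tubule markers, and 1 to 530 when a library was left out. Members called numbered 0, against 16 with DESeq2, 18 without a filter (13 of them also DESeq2 calls) and 0 to 13 when a library was left out, the 13 without the first vehicle library. The nuclear median of 0.43 became 0.16 with the tubule level and 0.33 to 0.54 when a library was left out. The mitochondrially encoded median of 0.58 became 0.025 and 0.054 to 0.97.

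In AC1903 against vehicle, 0 genes were called, against 67 with DESeq2, 114 without a filter, 1 with age and 0 to 4 when a library was left out, and DESeq2 called 2 members. The nuclear median of -0.32 became -0.20 with age, -0.21 with the tubule level and -0.41 to -0.16 when a library was left out. The mitochondrially encoded median of -0.08 reversed to 0.28 with age and 0.11 with the tubule level, and ran from -0.49 to 0.46 when a library was left out. In AC1903 against WT, 5 genes were called, against 181 with DESeq2, 464 without a filter, 21 with only the 2 groups and 1 to 25 when a library was left out. The nuclear median of 0.14 reversed to -0.0093 with the tubule level and was 0.10 to 0.17 when a library was left out. The log2 difference in the ratio of the genomes ran from -0.29 to 0.35 for vehicle against WT, from -0.021 to 0.62 for AC1903 against vehicle and from 0.070 to 0.58 for AC1903 against WT when a library was left out. The cause of these shifts was not tested.

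Of the log2 changes of single named genes under the alternatives, none of which edgeR called in the main design, 1997 kept their direction and side of the threshold, 29 kept their direction and passed it, and 112 changed sign, most of them with the tubule markers or age as a covariate or without the second vehicle library. With age as a covariate, the log2 change in vehicle against WT was 0.11 for COX7A2 second ID and 0.085 for NDUFA4L2. With age as a covariate, the log2 change in AC1903 against vehicle was 0.26 for COX6B1, 0.18 for COX6B1 second ID, -0.26 for COX7A2 second ID, 0.30 for MT-ATP6, 0.22 for MT-CO1, 0.18 for MT-CO2, 0.20 for MT-CO3, 0.39 for MT-CYB and 0.27 for MT-ND1. There it was also 0.36 for MT-ND2, 0.082 for MT-ND3, 0.29 for MT-ND4, 0.37 for MT-ND4L, 0.29 for MT-ND5, 0.090 for MT-ND6, 0.0097 for SDHA, 0.17 for SDHB and 0.060 for SDHC. With limma-voom, the log2 change in AC1903 against vehicle was 0.0017 for MT-ATP6, 0.023 for MT-CYB, 0.038 for MT-ND2 and 0.021 for MT-ND4. Without a filter, the log2 change in AC1903 against WT was -0.00022 for SDHD. With the tubule marker covariate, the log2 change in vehicle against WT was -0.045 for ATP5G1, -0.022 for COX4I1, -0.19 for COX6B1, -0.34 for COX6B1 second ID, 0.48 for COX7A2 second ID, -0.0082 for COX7A2L, -0.063 for MT-ATP6, -0.093 for MT-CO2 and -0.011 for MT-CO3. There it was also -0.26 for MT-CYB, -0.23 for MT-ND1, -0.0092 for MT-ND2, 1.13 for NDUFA4L2 and -0.091 for SDHA. With the tubule marker covariate, the log2 change in AC1903 against vehicle was 0.15 for COX6B1, 0.037 for COX6B1 second ID, 0.15 for MT-ATP6, 0.11 for MT-CO1, 0.021 for MT-CO2, 0.10 for MT-CO3, 0.22 for MT-CYB, 0.13 for MT-ND1 and 0.19 for MT-ND2. There it was also 0.13 for MT-ND4, 0.084 for MT-ND4L, 0.095 for MT-ND5 and 0.073 for SDHB. With the tubule marker covariate, the log2 change in AC1903 against WT was 0.19 for ATP5E, -0.22 for ATP5G1, -0.039 for COX6B1, -0.30 for COX6B1 second ID, 0.056 for COX7A2, 0.58 for COX7A2 second ID, -0.071 for MT-CO2, -0.041 for MT-CYB and -0.095 for MT-ND1. There it was also 0.50 for NDUFA4L2, -0.20 for SDHA, -0.16 for SDHD and -0.092 for UQCRFS1. With the replicate block, the log2 change in AC1903 against vehicle was 0.014 for MT-ATP6, 0.014 for MT-CO3, 0.026 for MT-CYB, 0.043 for MT-ND2 and 0.034 for MT-ND4. With each library left out in turn, the range of the log2 change in vehicle against WT was -0.091 to 1.44 for COX6B2, -0.026 to 0.12 for COX7A2L, -0.038 to 0.98 for MT-ATP6, -0.025 to 0.93 for MT-CO2, -0.075 to 0.84 for MT-CO3, -0.12 to 0.95 for MT-CYB, -0.16 to 0.86 for MT-ND1 and -1.29 to 0.47 for NDUFA4L2. With each library left out in turn, the range of the log2 change in AC1903 against vehicle was -0.33 to 0.28 for COX6B1, -0.50 to 0.52 for MT-ATP6, -0.50 to 0.46 for MT-CO1, -0.61 to 0.35 for MT-CO2, -0.46 to 0.45 for MT-CO3, -0.51 to 0.56 for MT-CYB, -0.53 to 0.49 for MT-ND1, -0.42 to 0.50 for MT-ND2 and -0.48 to 0.19 for MT-ND3. There it was also -0.42 to 0.47 for MT-ND4, -0.34 to 0.35 for MT-ND4L, -0.43 to 0.35 for MT-ND5, -0.51 to 0.15 for MT-ND6, -1.03 to 0.81 for NDUFA4L2, -1.18 to 0.12 for NDUFB4 second ID, -0.31 to 0.085 for SDHB and -0.47 to 0.071 for SDHC. With each library left out in turn, the range of the log2 change in AC1903 against WT was -0.21 to 0.10 for ATP5E, -0.21 to 0.085 for ATP5G2, -0.16 to 0.062 for COX4I1, -0.014 to 0.18 for COX6A1, -0.057 to 0.49 for COX6B1 second ID, -0.39 to 0.54 for COX7A1, -0.13 to 0.048 for COX7A2, -0.33 to 0.22 for COX7A2 second ID and -0.21 to 0.028 for COX7A2L. There it was also -0.18 to 0.17 for SDHD.

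Same-numbered libraries did not deviate together over all genes tested (correlations -0.02, -0.04 and 0.00), so they were not treated as pairs. A pairing that affects few genes would not show in these correlations. With the replicate block 4, 2 and 7 genes were called in the 3 comparisons and 0 members. Depth limits the isoforms with fewer than about 100 counts.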
